A study of Mus musculus with 24 samples.

Results

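MPP2 progenitors of mouse bone marrow were compared between 3 RNA sequencing libraries from mice that lost both copies of Mysm1 (KO) and 3 libraries from mice that lost 1 copy (Het). These 6 libraries were taken, by the population and genotype in their labels, from the 24 of the study. All mice were C57BL/6, of both sexes, and 8 to 12 weeks old. KO mice were Mysm1 fl/fl CreERT2 and Het mice Mysm1 +/fl CreERT2, and both received 8 tamoxifen injections of 0.15 mg per gram over 16 days. The Het controls therefore share the Cre and the drug with the KO mice and carry 1 allele open to deletion. A further 2 Sham libraries came from floxed mice given corn oil alone, so Sham differs from KO in the drug as well as in the alleles. CreERT2 is a Cre recombinase that tamoxifen switches on. Its promoter was not given in the sources used here, so loss of Mysm1 in other cells of the same mice cannot be told apart from loss in the sorted cells. Marrow of several mice was pooled for each library, so the p-values reflect how pools differed and say nothing of single animals.

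Mysm1 is a deubiquitinase that takes ubiquitin off histone H2A, a mark that Polycomb repressive complex 1 puts on. Mice without it are known to have too few blood cells of most kinds, and in earlier work of the field removal of the tumour suppressor p53 relieved much of this. MPP2 cells are early multipotent progenitors that carry CD48 and CD150, and they are known for a bias towards megakaryocytes and red cells.

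The 6 libraries held 27342308 to 53196624 counts and showed 18348 to 21150 genes. Values below are CPM (counts scaled to the size of each library after TMM), and a gene passed the test when its adjusted p in edgeR's quasi-likelihood test (Benjamini-Hochberg over 21456 genes) was under 0.05. Mysm1 itself lay at 88.1, 92.6 and 102 CPM in KO libraries 1, 2_3 and 4, against 105, 112 and 98.5 in Het. The groups overlapped, and the log2 change was -0.15 ± 0.14 (SE, n = 3 against 3; adjusted p = 0.993). The deletion takes out exon 3 only, so a count over the whole gene does not check it. Of the genes that define the sort, Kit stood at 517 to 523 CPM in KO and 503 to 613 in Het. Cd48 was at 34 to 56.9 in KO and 13.8 to 24.1 in Het, and Slamf1, which encodes CD150, at 37.4 to 51.3 and 20.2 to 27.5; neither passed (adjusted p = 0.993 and 0.118). Ly6a, which encodes Sca-1, was low throughout, at 4.66 to 8.48 CPM in KO and 1.06 to 5.04 in Het, with the 5.04 in Het 2_3. It did not pass against Het (log2 change 1.26, edgeR adjusted p = 0.326). Without Het 2_3 it passed, with a log2 change of 2.07 (edgeR adjusted p = 0.00765), and in no other of the 6 fits that left out 1 library. Against Sham, at 0.825 and 1.57 CPM, it was higher by 2.42 on the log2 scale (edgeR adjusted p = 0.0128). Flt3, which the sort excludes, stood at 98 CPM in Het library 2_3 and at 4.5 to 24.9 in the other 5.

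Het library 2_3 stood apart from the other MPP2 libraries in granulocyte genes and, less often, in lymphoid genes. Mpo, the myeloperoxidase of neutrophil granules, was at 2189 CPM there, against 184 and 71.3 in Het libraries 1 and 4 and 42 to 78.1 in KO. Of 39 granulocyte, monocyte and neutrophil genes, 35 had their highest value of all 8 MPP2 libraries in Het 2_3, while 24.7% of all genes did. So did 14 of 25 lymphoid genes, 6 of 10 B cell markers, 6 of 11 T and NK cell markers and 6 of 12 sort markers. In contrast, 0 of 24 megakaryocyte and platelet genes and 2 of 26 erythroid genes did. Results that rest on this library are given with and without it.

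Few genes passed between KO and Het MPP2, and nearly all of those were higher in KO. In simulated data, with changes set in genes of at least 5 CPM, the model found 50% of those with a log2 change of 1. It found 52% at -1, 92% at 2 and 90% at -2. A gene that did not pass may therefore still have changed. Of 21456 genes, 89 passed (0.415%), of which 81 were higher (0.378%) and 8 lower (0.0373%) in KO. At an unadjusted p under 0.05 there were 1207 genes (5.63%). The rises ran from 0.58 to 4.57 on the log2 scale with a median of 1.21, and 16 of them were of 2 or more. All 89 had KO libraries that did not overlap with Het, a separation that 3145 of all genes showed (14.7%). Over all genes tested the median log2 change stood at -0.06. Leaving out 1 library lowered the count, most of all KO 1 (37 genes), Het 1 (39) and Het 4 (55), and 28 of the 89 passed in all 6 such fits.

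**Figure D1:**
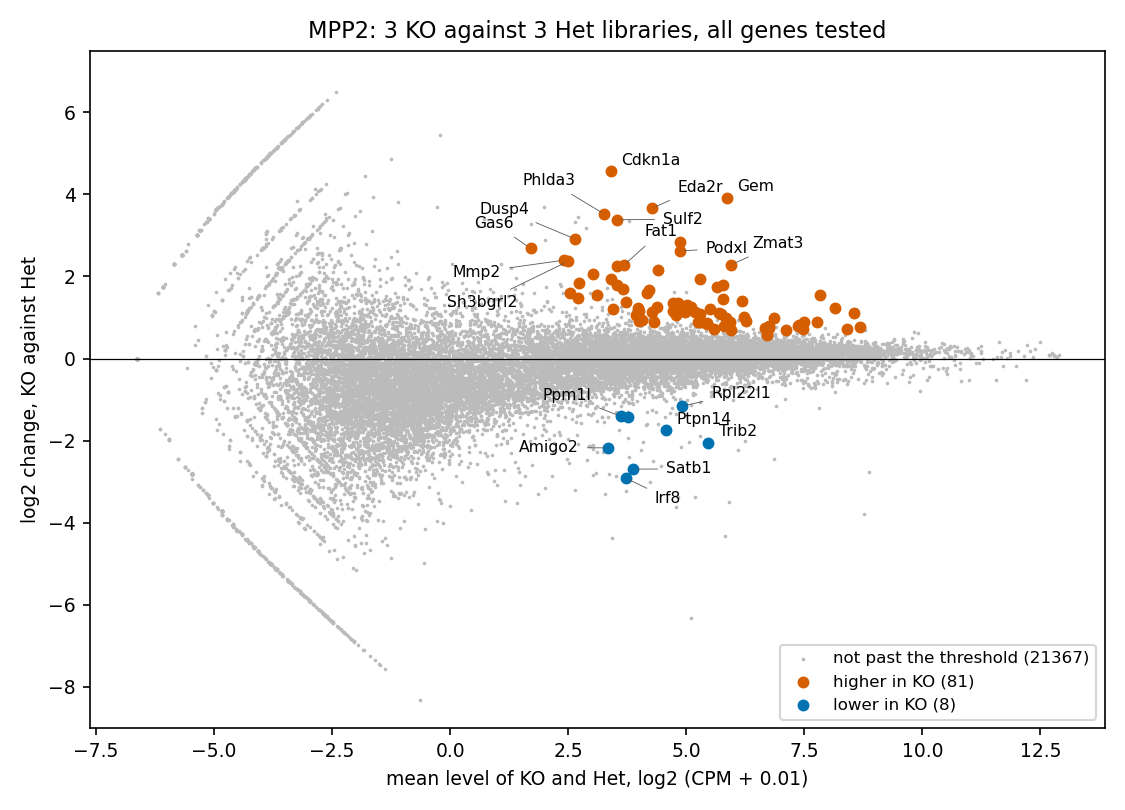
Log2 change of KO against Het (vertical axis) for every gene tested, by its mean level in the 6 libraries (log2 of CPM + 0.01, horizontal axis). The 81 genes higher in KO (orange) outnumber the 8 lower (blue), all 89 lie at 1 CPM or more, and the named points are the largest rises and falls.

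The largest rises were led by targets of p53, the transcription factor that answers DNA damage and ribosomal stress. Of 47 p53 targets tested, 13 rose and 1 fell, 27.7% higher against 0.378% of all genes, and the median log2 change of the list was 0.56. All KO libraries lay above all Het libraries in 25 of the 47, and below them in 2, against 9.06% and 5.6% of all genes. The mRNA of p53 itself (Trp53) was at 76.5 to 88.8 CPM in KO and 62.7 to 75.9 in Het, and did not pass (adjusted p = 0.993). Summed over the 47 genes, KO libraries 1, 2_3 and 4 held 2561, 2343 and 2611 CPM, and Het libraries 1509, 1490 and 1668.

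Of 10 cell cycle arrest genes, 3 rose. Cdkn1a, which encodes p21, an inhibitor of cyclin-dependent kinases, stood at 22.6, 19.7 and 18.5 CPM in KO libraries 1, 2_3 and 4, at 0.617, 1.27 and 0.679 in Het, and at 1.18 and 0.936 in Sham. All KO libraries were far above all controls, and the mean was 23.7-fold that of Het (log2 change 4.57 ± 0.84 SE, n = 3 against 3; edgeR adjusted p = 0.00783). Ccng1, cyclin G1, was at 367, 296 and 360 CPM in KO and at 115, 101 and 132 in Het, with no overlap (log2 change 1.56 ± 0.17, edgeR adjusted p = 5.21e-06). Psrc1, a protein of the mitotic spindle, was at 91.3, 70.4 and 93.9 CPM in KO and 27.4, 20.2 and 26.2 in Het, which is 3.46-fold (edgeR adjusted p = 1.29e-05). The largest fold did not make the most abundant transcript. Lengths given with the counts were 3487 bases for Ccng1 and 3846 for Cdkn1a, shorter than the annotated gene spans. Per kilobase of that length, Ccng1 reached 97.8 CPM in KO against 33.2 in Het, while Cdkn1a reached 5.27 against 0.222. Plk2, a kinase of the same class, lay at 9.06, 4.23 and 4.37 CPM in KO and 0.123, 0.784 and 0.905 in Het, and missed the threshold (edgeR adjusted p = 0.0533).

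Among cell death genes, 5 of 12 rose. Eda2r, a receptor of the tumour necrosis factor family, was at 37.9, 27.5 and 42.4 CPM in KO and at 0.957, 2.58 and 4.93 in Het. KO was higher in all libraries, 12.7-fold by the mean (log2 change 3.66 ± 0.49, edgeR adjusted p = 0.000297). Bax, which opens the outer mitochondrial membrane, was at 51.5, 44.9 and 54 CPM in KO and 25.6, 23.8 and 18.9 in Het (log2 change 1.14 ± 0.22, edgeR adjusted p = 0.00654). Bbc3, which encodes the BH3-only protein PUMA, rose by 1.55 on the log2 scale (edgeR adjusted p = 0.0348). Trp53inp1, a stress protein that binds p53, rose by 1.46 and Ei24, a protein of the endoplasmic reticulum, by 0.90. Pmaip1, which encodes the BH3-only protein NOXA, did not pass (log2 change 1.76, edgeR adjusted p = 0.993), nor did the death receptor gene Fas (0.34, adjusted p = 0.993).

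Of 6 genes that regulate p53 or its signalling, 3 rose. Zmat3, an RNA-binding zinc finger protein, was at 100, 103 and 105 CPM in KO and 27.7, 20.2 and 15.4 in Het. The KO libraries were nearly equal and 4.87-fold above Het by the mean (log2 change 2.29 ± 0.26, edgeR adjusted p = 1.29e-05). Phlda3, which represses the kinase Akt, was at 18.3, 15 and 19.7 CPM in KO and at 2.1, 1.42 and 1.11 in Het (log2 change 3.52 ± 0.79, edgeR adjusted p = 0.0428). Mdm2, the ubiquitin ligase that marks p53 for degradation, rose least, from 80, 81.1 and 89.4 CPM in Het to 130, 117 and 128 in KO (log2 change 0.58 ± 0.13, edgeR adjusted p = 0.0382). In metabolism and stress, Ak1, an adenylate kinase, rose by 2.15 on the log2 scale and Slc19a2, a thiamine transporter, by 1.60, 2 of 8 genes. None of the 5 DNA repair targets passed. Ptpn14, a tyrosine phosphatase that restrains the Hippo effector YAP, was the 1 listed target that fell, from 38.5, 23.2 and 48.8 CPM in Het to 8.1, 12.9 and 12 in KO (log2 change -1.75 ± 0.29, edgeR adjusted p = 0.00304). Of the 33 listed targets that did not pass, 23 had a log2 change above 0.

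The calls differed in how much they rested on single libraries. Of the 13 rises, Ccng1, Psrc1, Zmat3, Eda2r, Trp53inp1 and Ak1 passed in all 6 fits that left out 1 library. Eda2r did not pass with the 6 MPP2 libraries fitted alone (edgeR adjusted p = 0.135). Cdkn1a did not pass without Het 1 or without Het 4 (edgeR adjusted p at most 0.107), though its log2 change stayed between 4.38 and 4.96. Bax did not pass without Het 4 (edgeR adjusted p = 0.0708), and Ei24 not without KO 1 or Het 1 (at most 0.0701). Bbc3 passed only without Het 4 (edgeR adjusted p = 0.0209). Phlda3, Slc19a2 and Mdm2 passed in none of the 6, with edgeR adjusted p up to 0.24, 0.212 and 0.28.

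**Figure D2:**
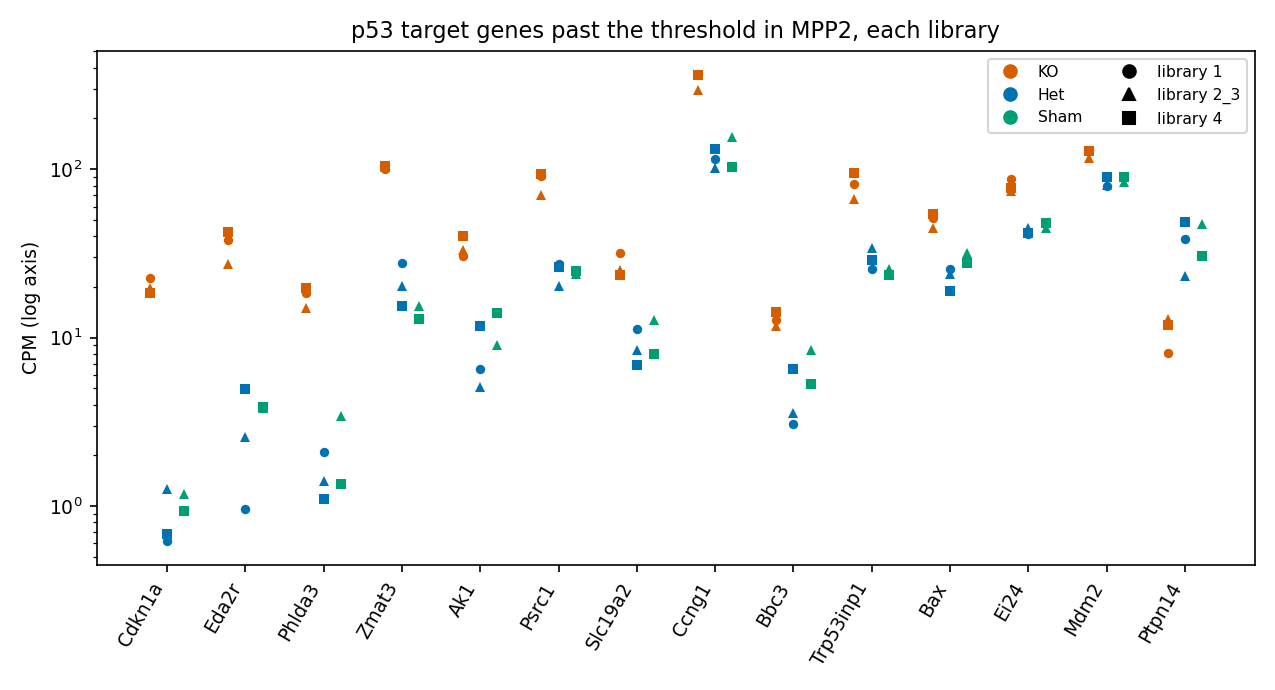
CPM (log axis) of the 14 p53 targets that passed, in each MPP2 library: KO in orange, Het in blue, Sham in green, with a marker shape for each library number. KO lies above every Het library in 13 genes, from Cdkn1a at the left to Mdm2, and below every Het library in Ptpn14.

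p53 binds a response element made of a pair of decamers. The sites shown lie in 5 of the listed targets that rose, chosen after their values were seen, so that the letters behind the match can be read. The search took the mm9 sequence 2500 bases to each side of the annotated gene start, read the 20-base p53 response element consensus with no spacer (the consensus is its own reverse complement, so both strands were covered), and allowed 2 mismatches, none at the core C and G of either decamer. Capitals mark letters that match the consensus and lower case marks mismatches. Each site is read 5′ to 3′ on the strand of its gene, which is the minus strand for Ccng1, Zmat3 and Eda2r and the plus strand for Cdkn1a and Psrc1.
Cdkn1a, chr17:29227873-29227892, 51 bases upstream of the start: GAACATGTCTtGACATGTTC
Ccng1, chr11:40568964-40568983, 170 bases upstream of the start: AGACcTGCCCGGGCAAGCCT
Zmat3, chr3:32263253-32263272, in an intron: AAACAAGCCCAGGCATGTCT
Psrc1, chr3:108187574-108187593, in an intron: GGGCATGTTgAGGCATGCCC
Eda2r, chrX:94571873-94571892, in an intron: GGGCAAGTCCGGGCcTGTgT

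A match was found for 6 of the 13 p53 targets that rose (46.2%), 7 of the 33 that did not pass (21.2%), 5 of the 65 other rising genes with a window (7.69%) and 991 of 19539 genes in all (5.07%). Zmat3 matched at every letter, and Cdkn1a, Ccng1 and Psrc1 at all but 1. Ccng1 also held a site with 1 mismatch in an intron, which is not shown. p53 targets were partly defined in the field by such sites, and a match is a run of letters, not a measured binding site.

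Beyond the p53 list, the largest rises named by the rule used here were those of Gem, Sulf2, Dusp4, Gas6, Podxl, Mmp2, Sh3bgrl2 and Fat1. A predicted gene, 9030617O03Rik, lay within their range, higher by 2.84 on the log2 scale (edgeR adjusted p = 5.6e-05). Gem, a small GTPase of the RGK family, was at 198, 91.2 and 38.3 CPM in KO and at 3.98, 8.1 and 9.48 in Het. The KO libraries spread widely and still lay above every Het (log2 change 3.92 ± 0.60, edgeR adjusted p = 0.00603; 0.0586 without Het 1). Gem did not pass with the 6 MPP2 libraries fitted alone, with or without the replicate block (edgeR adjusted p up to 0.355). Sulf2, an extracellular sulfatase that trims heparan sulfate, was at 25.6, 20.6 and 17.1 CPM in KO against 1.57, 3.1 and 1.41 in Het, which is 10.4-fold (edgeR adjusted p = 0.00304). Dusp4, a phosphatase that switches off the MAP kinase ERK, was at 13.9, 12.2 and 6.88 against 1.39, 1.79 and 1.21, which is 7.52-fold (edgeR adjusted p = 0.00294). Gas6, a secreted ligand of the TAM receptors, was at 6.42, 6.47 and 3.93 CPM in KO and 0.617, 1.42 and 0.603 in Het (log2 change 2.68 ± 0.42, edgeR adjusted p = 0.000916). Fat1, an atypical cadherin, rose 4.83-fold (edgeR adjusted p = 0.000297). Sulf2, Dusp4, Gas6 and Fat1 passed in all 6 fits that left out 1 library, and Gas6 did not pass with the 6 MPP2 libraries fitted alone (edgeR adjusted p = 0.0564).

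Podxl, a sialomucin related to CD34, was at 49.1, 42.7 and 59.8 CPM in KO and at 6.76, 6.64 and 11.1 in Het (log2 change 2.62 ± 0.47, edgeR adjusted p = 0.0147). Its 2 Sham libraries were at 51 and 10.8, so 1 control library lay among the KO values. It did not pass without KO 1, Het 1 or Het 2_3 (edgeR adjusted p up to 0.127). Mmp2, a gelatinase, rose by 2.40 on the log2 scale (edgeR adjusted p = 0.0153) and was lost without KO 1, Het 1 or Het 4 (up to 0.172). Sh3bgrl2 rose by 2.37 (edgeR adjusted p = 0.0384) and passed only without Het 4.

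Of 29 MAP kinase feedback genes, 3 rose (10.3%) and 0 fell, against 0.378% and 0.0373% of all genes. Besides Dusp4 these were Etv5, an ETS transcription factor (log2 change 1.35, edgeR adjusted p = 0.013), and Dusp6, another ERK phosphatase (1.06, adjusted p = 0.0325). The list's median was -0.02, and Dusp6 did not pass in 4 of the 6 fits with 1 library left out (without KO 1, KO 2_3, Het 1 or Het 4; up to 0.379), nor Etv5 in 3 (without KO 1, Het 1 or Het 4; up to 0.152). In the list of immediate early and dissociation stress genes, Gem and Ier5 rose, 2 of 31 (6.45%, against 0.378% of all genes). Ier5 went from 17.6, 19 and 23.8 CPM in Het to 46.8, 42.6 and 55.9 in KO (edgeR adjusted p = 0.00023), while none of the 10 AP-1 and EGR genes passed. The TAM receptor genes Axl, Mertk and Tyro3 did not pass, with log2 changes of 0.24, -0.26 and 1.39 (edgeR adjusted p = 0.994, 0.996 and 0.993).

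Of 10 MHC class II genes, 2 rose (20%, against 0.378% of all genes). H2-Aa, an alpha chain, was at 9.99, 13.8 and 7.42 CPM in KO and 2.1, 2.95 and 3.59 in Het (log2 change 1.85 ± 0.30, edgeR adjusted p = 0.00122). H2-Eb1, a beta chain, was at 10.1, 15.7 and 13.5 against 1.6, 3.88 and 3.95 (log2 change 2.06 ± 0.34, edgeR adjusted p = 0.00309). Both passed in all 6 fits with 1 library left out, but not in limma-trend on the deposited normalized signal (adjusted p = 0.0798 and 0.0644). None of the markers of macrophages and dendritic cells (0 of 12), B cells (0 of 10) or T and NK cells (0 of 11) passed. The summed B cell markers were at 21.6, 49.3 and 17.6 CPM in KO and 47, 55.1 and 34.4 in Het, and the summed macrophage and dendritic markers at 31.3, 55.4 and 34.7 in KO and 39.9, 53.2 and 41.8 in Het.

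Of 47 stem cell identity genes, 3 rose (6.38%) and 1 fell, against 0.378% and 0.0373% of all genes. The list's median log2 change was 0.28. Msi2, an RNA-binding protein of stem cells, was at 487, 424 and 361 CPM in KO and 249, 267 and 253 in Het (log2 change 0.73 ± 0.14, edgeR adjusted p = 0.00727; up to 0.131 without KO 1 or Het 1). Fstl1, a secreted glycoprotein, rose by 1.80 (adjusted p = 0.0268) and Ptplad2, an enzyme of fatty acid elongation, by 1.21 (adjusted p = 0.00602). Fstl1 was lost without KO 1, KO 2_3, Het 1 or Het 4 (edgeR adjusted p up to 0.169), and Ptplad2 without Het 1 (0.0709). Trib2, a pseudokinase, fell from 82.4, 38.4 and 92.4 CPM in Het to 9.35, 17.7 and 24.5 in KO, with no overlap (log2 change -2.05 ± 0.38, edgeR adjusted p = 0.0158). It did not pass without KO 1, KO 2_3, Het 1 or Het 4 (edgeR adjusted p up to 0.0799).

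A list of 26 genes held Mysm1, its reported partners and the enzymes that put ubiquitin on histone H2A or take it off. Its median log2 change was 0.01, with members from -1.22 to 1.60. Of these, 1 rose (3.85%, against 0.378% of all genes). This was Usp44, a histone deubiquitinase, from 2.07, 2.91 and 3.65 CPM in Het to 7.65, 8.51 and 10.1 in KO (log2 change 1.60 ± 0.36, edgeR adjusted p = 0.0325). Usp44 passed in none of the 6 fits with 1 library left out (0.0591 to 0.315). None of the 11 subunits of the Polycomb ligase passed.

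The series asks about ribosomal protein genes. In MPP2, 10 of 78 cytosolic ribosomal protein mRNAs had an unadjusted p under 0.05 in edgeR against Het, where 5.63% of all genes did. Of the 78, 0 passed in either direction, and the median log2 change was -0.01. The nearest were Rpl36a, at 400, 302 and 340 CPM in KO and 553, 502 and 533 in Het (log2 change -0.61 ± 0.15, edgeR adjusted p = 0.0599), and Rpl37a, at 213, 166 and 183 against 328, 283 and 252 (-0.62 ± 0.15, adjusted p = 0.0612). KO libraries lay below all Het libraries in 15 of the 78 and above in 4, against 5.6% and 9.06% of all genes. Against Sham, 5 of the 78 were lower and 0 higher, while 0.14% of all genes were lower, and the list's median was -0.32. Rpl36a and Rpl37a were among the 5 (log2 change -0.76 and -0.85, edgeR adjusted p = 0.0161 and 0.00743). Without Sham 2_3 no gene of the whole table was lower than in Sham. Summed over the list, KO held 78890, 66070 and 75690 CPM and Het 72460, 72230 and 81730, so that the groups overlapped. Rpl22l1, a paralog of Rpl22 outside that list, fell from 32.8, 45.3 and 46.4 CPM in Het to 22.4, 16 and 17.4 in KO (log2 change -1.16 ± 0.22, edgeR adjusted p = 0.00654), and was lost without KO 2_3 or KO 4 (up to 0.0695). None of 39 ribosome biogenesis genes passed (median 0.18).

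**Figure D3:**
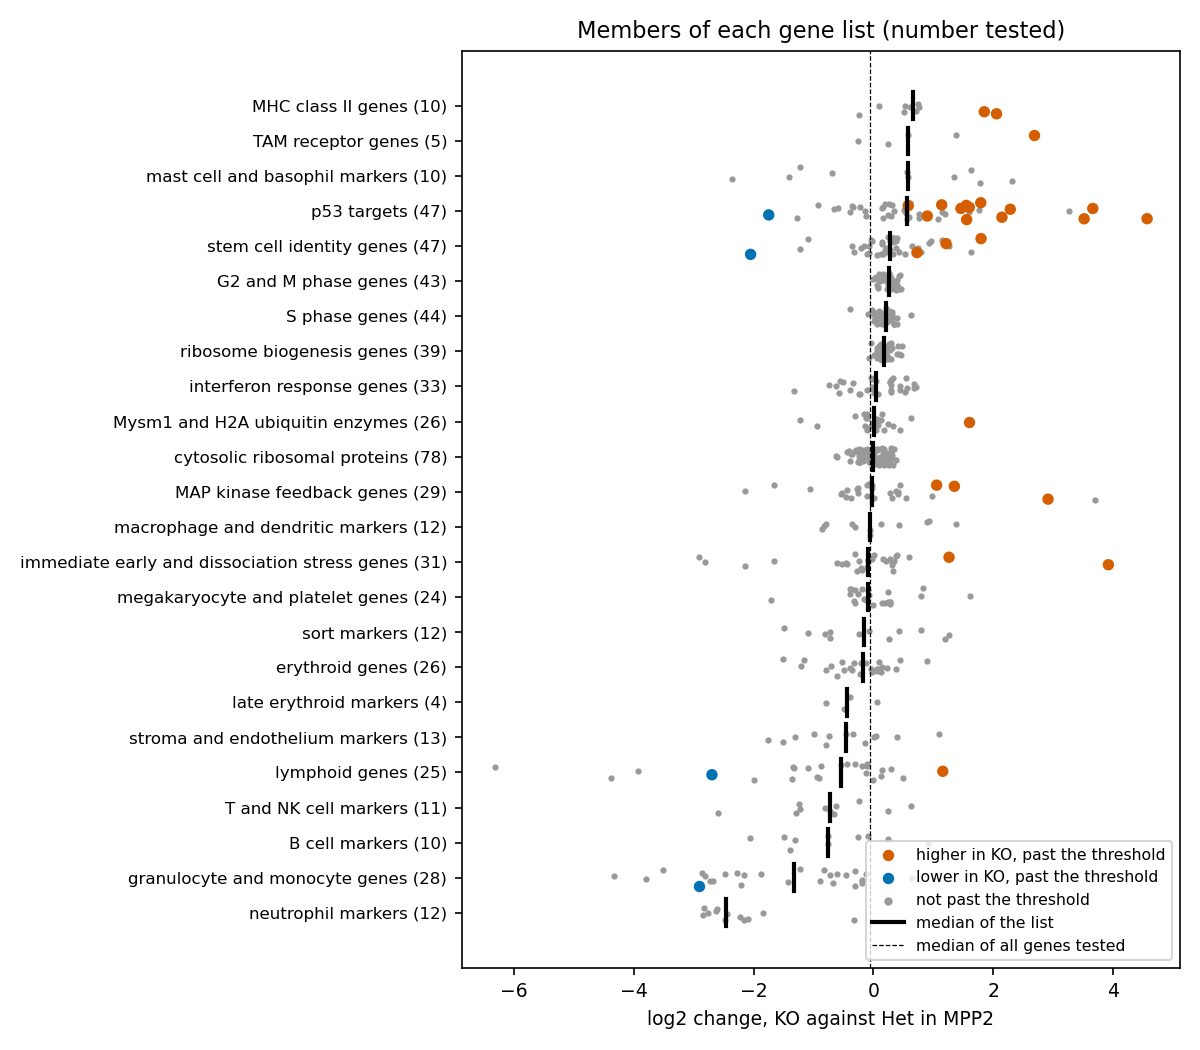
Log2 change of KO against Het for the members of each gene list, with the number tested in brackets. Orange and blue points passed the test (higher and lower in KO), grey points did not, thick bars are list medians and the dashed line is the median of all genes; p53 targets hold 13 orange points, and the neutrophil and granulocyte lists lie furthest left with 0 and 1 blue points.

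No gene of the proliferation lists passed against Het or Sham in edgeR. Of 44 S phase genes 41 had a log2 change above 0 (44.9% of all genes did), with a median of 0.21 and members from -0.38 to 0.63. Of 43 G2 and M phase genes 42 did, with a median of 0.26 and members from just below 0 to 0.46. Against Sham the medians were -0.03 and 0.17. The 44.9% takes in 7941 genes under 1 CPM, whose median against Het was -0.66, while that of the other 13515 was 0.04. Mcm3, a subunit of the replicative helicase, was at 731, 674 and 680 CPM in KO and 564, 497 and 613 in Het (log2 change 0.32, edgeR adjusted p = 0.966), and Sham at 668 and 759 lay in and above the KO range. None of 24 megakaryocyte and platelet genes, 26 erythroid genes or 33 interferon response genes passed against Het (medians -0.08, -0.17 and 0.05). At an unadjusted p under 0.05 there were 3, 2 and 12, against 5.63% of all genes. Of the interferon genes, 9 had all KO libraries above all Het and 3 below, against 9.06% and 5.6% of all genes. Against Sham 1, 0 and 3 were higher and 0 lower (0.489% and 0.14% of all genes), among them Selp and Ifi47 (edgeR adjusted p = 0.0128 and 0.0204). In bulk samples, a smaller share of cells of a type and less RNA per cell cannot be told apart.

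Granulocyte and neutrophil genes had the lowest list medians, and Het library 2_3 held most of the difference. Of 28 such genes 27 had a log2 change below 0, with a median of -1.32. Of these, 1 passed as lower, against 0.0373% of all genes. Their sum was 511, 733 and 469 CPM in KO, 739, 4076 and 587 in Het and 538 and 653 in Sham, so Het 2_3 stands alone. Without Het 2_3 the median was -0.39. All 12 neutrophil markers were below 0 (median -2.47, and -1.01 without Het 2_3) and 0 passed. In 7 of the 12 all KO libraries lay below all Het, against 5.6% of all genes. In comparisons that do not use Het 2_3 of MPP2, their medians were -1.12 against Sham, -1.41 in HSC and -1.77 in MPP1. For the 28 granulocyte and monocyte genes these were -0.04, -0.32 and -0.54, and for all genes 0.10, 0.03 and -0.11. HSC and MPP1 each have a Het library numbered 2_3 as well. Whether those share marrow with Het 2_3 of MPP2 was not tested. The 12 neutrophil markers summed to 65.3, 198 and 112 CPM in KO, 196, 772 and 172 in Het, and 210 and 119 in Sham. Elane, neutrophil elastase, was at 4.2 to 6.88 CPM in KO, at 26.7, 283 and 12.3 in Het and at 16.5 and 17.8 in Sham (edgeR adjusted p = 0.746). Dntt, the terminal transferase of lymphoid precursors, was at 202 CPM in Het 2_3 and at most 1.79 in the other 7 libraries.

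**Figure D4:**
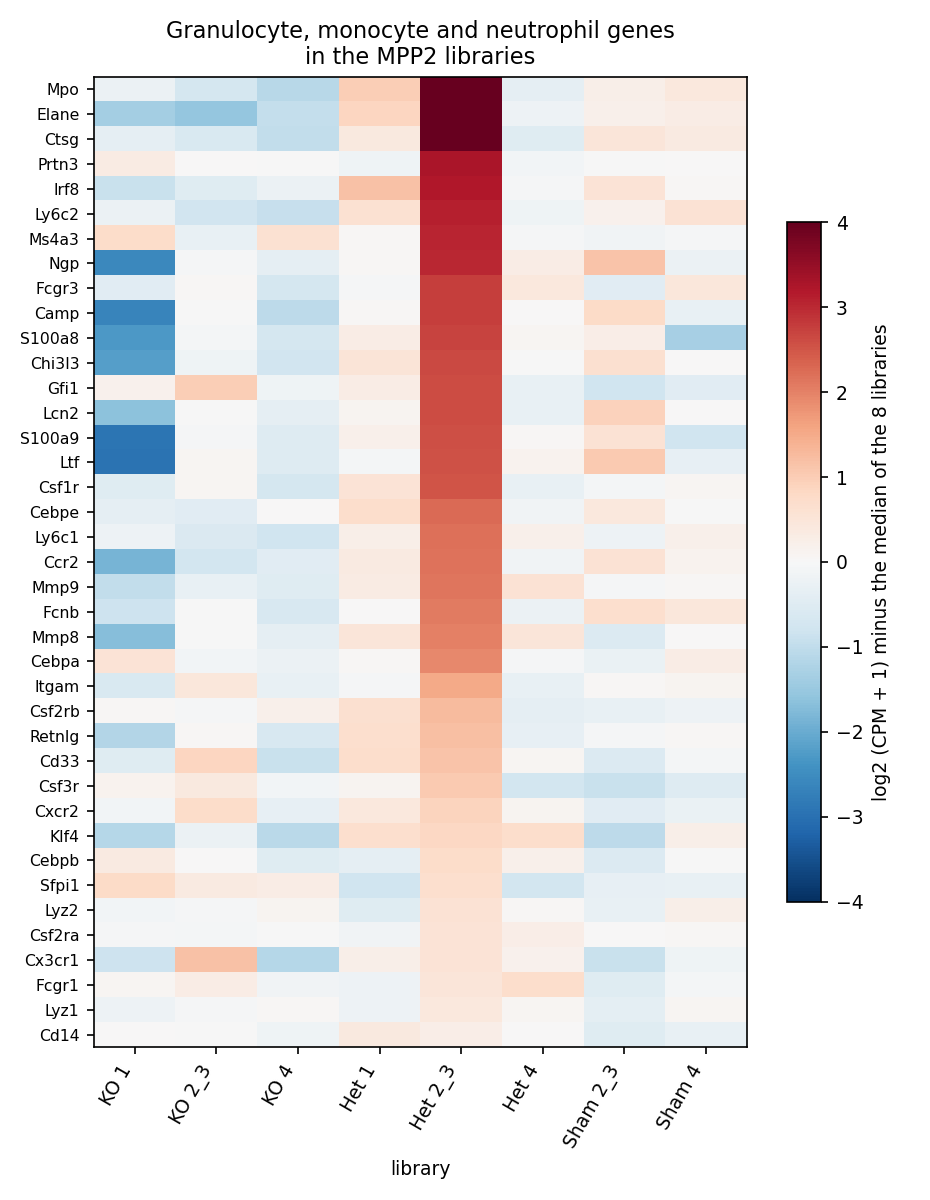
Granulocyte, monocyte and neutrophil genes in the 8 MPP2 libraries, as log2 (CPM + 1) minus the median of the 8 (colour scale clipped at -4 and 4; red is higher). Column Het 2_3 is the highest of the 8 in 35 of the 39 genes.

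Both transcription factors with the largest falls shared this pattern. Irf8, which directs monocytes and dendritic cells, was at 2.14, 3.15 and 3.93 CPM in KO and 12.1, 52.7 and 4.65 in Het (log2 change -2.91 ± 0.65, edgeR adjusted p = 0.0382). Without Het 2_3 the change was -1.44 and did not pass (adjusted p = 0.744), and without KO 1, KO 2_3 or KO 4 it also did not pass (0.358, 0.204 and 0.125). Satb1, a chromatin organiser of lymphoid cells, was at 3.66, 2.75 and 5.29 CPM in KO and 10.2, 56.9 and 8.8 in Het (log2 change -2.70 ± 0.53, edgeR adjusted p = 0.0166). Without Het 2_3 it was -1.29 (adjusted p = 0.263), and it was lost without KO 1 or KO 2_3 too (0.17 and 0.137). The summed granulocyte and neutrophil genes move with these 2 results, and their part in them was not tested. Of 25 lymphoid genes Satb1 fell and Il2rg, the common gamma chain of interleukin receptors, rose (log2 change 1.16, edgeR adjusted p = 0.0293). Among all genes, 0.0373% fell and 0.378% rose. Il2rg passed only without KO 4, and was up to 0.51 without another library. The list's median was -0.55, and 0.04 without Het 2_3.

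The other named falls passed without Het 2_3 as well. Amigo2, a leucine-rich adhesion protein, was at 2.68, 4.51 and 3.87 CPM in KO and 19.5, 14.4 and 16 in Het, which is 4.52-fold lower (log2 change -2.18 ± 0.29, edgeR adjusted p = 0.000105). Ppm1l, a protein phosphatase, was at 7.27, 8.54 and 4.18 against 17.7, 18.2 and 17.2 (log2 change -1.41 ± 0.28, edgeR adjusted p = 0.0134). Amigo2 and Ptpn14 passed in all 6 fits with 1 library left out, though Ptpn14 did not in limma-trend on the deposited normalized signal (adjusted p = 0.0644). Ppm1l was lost without KO 1, KO 4 or Het 1 (up to 0.139). In other fits more calls ended. With the 6 MPP2 libraries fitted alone, Bbc3, Mdm2, Dusp6, H2-Aa, Il2rg, Irf8, Satb1, Trib2, Msi2, Ptplad2, Sh3bgrl2, Mmp2 and Usp44 did not pass. In limma-trend on the deposited normalized signal, Etv5, Fstl1 and Ppm1l did not pass either, nor did the genes just named. Mdm2 did not pass with no filter on low counts, and Phlda3 not in limma-trend on counts or with the replicate block. Without Het 2_3, 83 genes passed in all, and 61 of the 89 were among them.

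**Figure D5:**
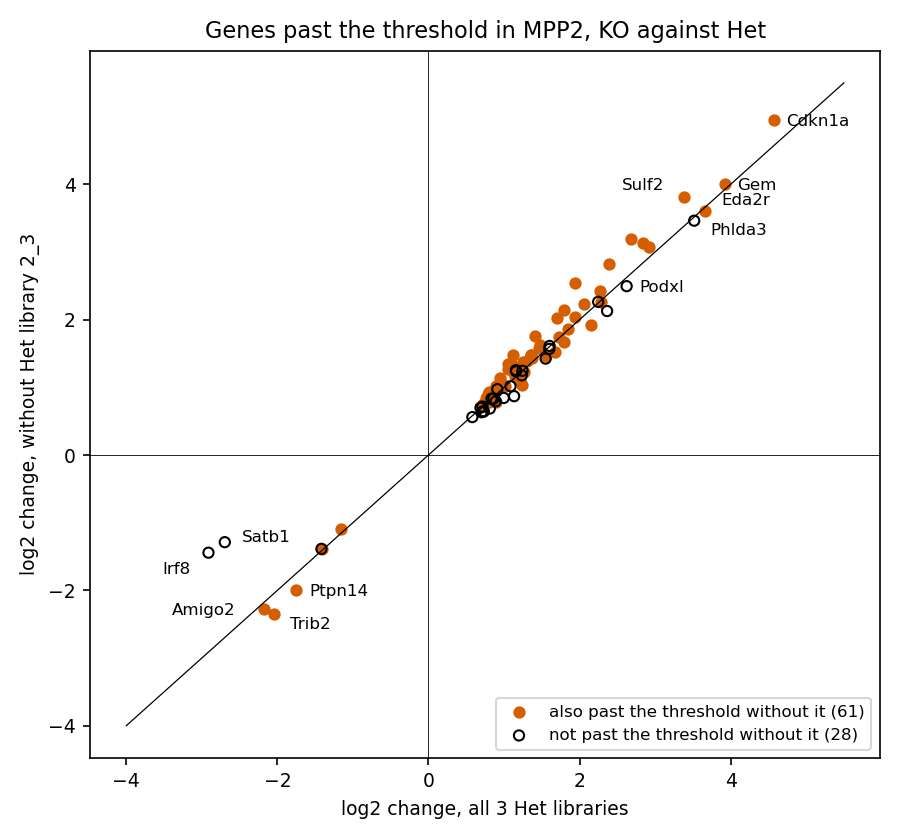
Log2 change of KO against Het with all 3 Het libraries (horizontal axis) and without Het library 2_3 (vertical axis) for the 89 genes that passed with all, along the line of equal values. Filled points (61) also passed without it, open points (28) did not, and Irf8 and Satb1 lie furthest from the line.

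Sham libraries give a second set of controls against the same KO libraries, so both comparisons share those 3 and are set side by side only. KO against Sham gave 135 genes (0.629%), 105 higher and 30 lower. This count fell to 5 without Sham 2_3, 58 without KO 1 and 74 without KO 2_3, and all 5 were higher. Against Sham, Cdkn1a changed by 4.25, Eda2r by 3.22, Zmat3 by 2.86, Sulf2 by 4.29 and Dusp4 by 3.95 on the log2 scale (edgeR adjusted p = 0.0424, 0.00554, 7.58e-06, 0.00246 and 0.00136). Of the 13 p53 targets higher than in Het, 7 passed against Sham, where Bax (0.76), Bbc3 (0.91) and Phlda3 (2.89) were among the 6 that did not (edgeR adjusted p = 0.261, 0.722 and 0.253). Irf8 and Satb1 had log2 changes of -1.01 and -0.89 against Sham and did not pass (both edgeR adjusted p = 1), while Amigo2 (-1.89), Trib2 (-2.54) and Ptpn14 (-1.82) did (edgeR adjusted p = 0.00149, 0.00415 and 0.00356). Podxl changed by 0.71 (adjusted p = 1). H2-Aa (3.50) and H2-Eb1 (3.08) passed (adjusted p = 7.58e-06 and 0.000626).

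The same KO against Het contrast was available in haematopoietic stem cells (HSC) and in MPP1 progenitors, where 132 (0.615%) and 12 genes (0.0559%) passed, and the difference between populations was tested itself. The log2 change was higher (more positive) in MPP2 than in HSC in 7 genes (0.0326%) and lower in 0, with 1565 genes at an unadjusted p under 0.05 (7.29%). The count was 69 by DESeq2, 0 by limma-trend and 0 to 50 with 1 library left out. In Plxdc2, Pik3cd, Kcnk5 and Nrk the log2 change in HSC was -2.09, -1.02, -0.96 and -1.82 and passed, while the MPP2 values of 0.26, 0.33, 0.63 and 1.50 did not pass. Against MPP1 it was 0 genes (0%; 512 at an unadjusted p under 0.05, which is 2.39%, and 14 by DESeq2). None of the 14 p53 targets that passed in MPP2 differed from HSC by this test (edgeR adjusted p from 0.244 to 1) or from MPP1 (all 1). The 13 that rose had a median log2 change of 1.60 in MPP2, 0.75 in HSC and 0.93 in MPP1, with the MPP2 value above that of HSC in 12 and above that of MPP1 in 13, but these genes were chosen for their rise in MPP2. Gas6 rose in MPP2 (2.68) and not in HSC (-0.62, edgeR adjusted p = 0.475). The difference of 3.30 ± 0.57 (SE, n = 3 against 3 in each population) passed (edgeR adjusted p = 0.0198). Without MPP2 KO 1, MPP2 KO 2_3, MPP2 Het 1, HSC KO 4 or HSC Het 4 it did not, and 0 genes did. Libraries of the different populations carry the same numbers and were fitted as independent. Whether they share marrow pools was not tested. Podxl was at 2.62 in MPP2 and -0.44 in HSC, a difference that did not pass (edgeR adjusted p = 0.164), and for Sulf2 (3.38 and 0.91) and Dusp4 (2.92 and 0.28) it was 0.452 and 0.19. For the p53 targets that passed in MPP2, and for Podxl, Sulf2 and Dusp4, a difference between the populations is not shown by this test.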

How the data were processed

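Libraries were rRNA-depleted, stranded and read as paired ends of 50 bases. The authors deposited raw counts per gene for 23364 symbols, made with FastQC, Trimmomatic 0.33, TopHat2 2.0.9, Bowtie 1.0.0 and featureCounts on mm9, per the submitters' processing notes, which also name edgeR and R 3.1.2. They also deposited a table of normalized signal, used here for 1 alternative only; its scaling is not given in the sources used here, and 0 columns were left unused. Strand use in the counting is not stated, so overlapping genes cannot be told apart.

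From the counts, edgeR 4.0.16 (R 4.3.3) kept 21456 genes by filterByExpr, scaled libraries by TMM and fitted 1 quasi-likelihood model with robust dispersion to the 24 libraries in 9 groups, which left 15 residual degrees of freedom (common dispersion 0.466). F tests were two-sided, with Benjamini-Hochberg adjustment over all genes and a threshold of 0.05. SE is the absolute log2 change over the square root of F. Groups share an estimate of the spread, so a fit that leaves an arm with 1 library assumes that it varies like the others. limma 3.58.1 and DESeq2 1.42.0 gave alternatives, the model was tested on simulated data, and positions are from GENCODE on mm9.

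The comparison, the members and the gene lists were chosen with earlier results of these data known. Named by rule were the 12 largest rises and falls among passing genes with at least 5 CPM and no overlap, all passing p53 targets, up to 6 passing members of each other list or 2 by p where none passed, and the 5 smallest adjusted p of each difference; predicted genes and a symbol turned into a date were passed over. Trp53, Plk2, Pmaip1, Fas, Mpo, Elane, Dntt, Axl, Mertk, Tyro3, Plxdc2, 9030617O03Rik and the genes of the closing observations were chosen after their values were seen.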

Additional observations from a re-analysis of the deposited data

Results flagged for a closer look

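In 5 named genes the KO effect differed between MPP2 and HSC by the test of the difference itself (edgeR's quasi-likelihood test, Benjamini-Hochberg over 21456 genes). For Gas6 the log2 difference was 3.30 (adjusted p = 0.0198), with a change of 2.68 in MPP2 and -0.62 in HSC. For Nrk, a kinase gene at 1.49 to 2.23 CPM in the KO libraries of MPP2, it was 3.32 (adjusted p = 0.0198), from 1.50 in MPP2 and -1.82 in HSC. For Kcnk5, a potassium channel, it was 1.59 (adjusted p = 0.0198), from 0.63 and -0.96. For Glipr2 it was 1.99 (adjusted p = 0.0435), from 1.94 and -0.05. For Pik3cd, the delta catalytic subunit of phosphoinositide 3-kinase, it was 1.35 (adjusted p = 0.0435), from 0.33 and -1.02. In Nrk, Kcnk5 and Pik3cd the change in MPP2 alone did not pass (adjusted p = 0.161, 0.244 and 0.951), while the fall in HSC did (0.0258, 0.0143 and 0.0084). Each of the 5 was lost when 1 of several libraries was left out, among them MPP2 KO 1 (Gas6 adjusted p = 0.0855) and HSC KO 4 (Gas6 adjusted p = 0.135). The differences kept their sign in every such fit.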

How the results depend on the processing

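No sign of the 89 genes turned under any alternative tried for them. The count of genes for KO against Het was 86 with DESeq2's size factors in edgeR, 85 with no filter on low counts, 88 with limma-trend and 63 with the 6 MPP2 libraries alone. It was 167 with DESeq2 and 52 with limma-trend on the deposited normalized signal, which holds fewer genes. Leaving out 1 library gave 37 to 83 (37 without KO 1, 39 without Het 1, 55 without Het 4), and 7 to 10 of the 47 p53 targets were then higher in KO, against 13 with all libraries (8 without KO 1 or Het 4, 7 without Het 1). With both controls pooled and Het 2_3 left out, an alternative chosen after seeing the data, 258 genes passed, and Flt3 turned from -1.08 to 1.19 (adjusted p = 0.0225).

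KO against Sham gave 268 genes with DESeq2 and 5 to 162 with 1 library left out (5 without Sham 2_3, 58 without KO 1, 74 without KO 2_3). The difference from HSC gave 3 genes with size factors, 69 with DESeq2, 0 with limma-trend and 0 to 50 with 1 library left out (50 without HSC Het 1, 19 without MPP2 Het 2_3). The difference from MPP1 gave 14 with DESeq2 and 0 to 7 (7 without MPP1 Het 1).

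Same-numbered KO and Het libraries deviated together at r = 0.006, 0.33 and 0.224 across genes (libraries 1, 2_3 and 4), so the numbers were not taken to pair them, and not every library correlated best with its own number. With the replicate block the counts were 122 (KO against Het), 196 (KO against Sham), 34 (difference from HSC) and 3 (difference from MPP1), and with the 6 MPP2 libraries alone and the replicate block 229, of which 20 were p53 targets that rose. The cause of these shifts was not tested. Genes under 1 CPM in MPP2 (7941) had a median log2 change of -0.66 and none passed in edgeR, so at this depth the results cover the other 13515.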

Other observations

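Further rising genes outside the lists were chosen after their values were seen. Col4a1, a basement membrane collagen, was at 53.7, 60.7 and 46.1 CPM in KO and 25.3, 31.8 and 18.7 in Het (log2 change 1.09, edgeR adjusted p = 0.00445), and did not pass without Het 4. Col18a1, another collagen, rose by 1.37 (edgeR adjusted p = 0.0158) and passed in only 2 of 6 fits that left out 1 library (without KO 2_3 or Het 2_3). Vim, the intermediate filament vimentin, was at 632, 457 and 452 CPM in KO and 281, 337 and 291 in Het (log2 change 0.76, edgeR adjusted p = 0.0158), and did not pass without KO 1, Het 1 or Het 4. Tjp1, of tight junctions, rose by 1.09 against Het (adjusted p = 0.0158), but its Sham libraries were at 86.5 and 33.5 CPM, against 69.2 to 74.9 in KO, and it passed in only 2 of the 6 fits (without KO 2_3 or Het 1). None of 13 markers of stroma and endothelium passed, and these summed to 111, 131 and 134 CPM in KO and 150, 156 and 139 in Het.

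Ccnd1, cyclin D1, which drives entry into the cell cycle, rose beside the inhibitor Cdkn1a. It was at 93.2, 80.7 and 57 CPM in KO and 18, 23.7 and 27.9 in Het (log2 change 1.73, edgeR adjusted p = 0.00603), and did not pass without Het 1. Casp12, a caspase, was at 44.6, 47.3 and 45.7 CPM in KO and 16.4, 20.4 and 18.7 in Het (log2 change 1.31, adjusted p = 0.000105), and Mlkl, the effector of necroptosis, rose by 0.91 (adjusted p = 0.0269). Casp12 passed in all 6 fits that left out 1 library, and Mlkl in 2 (without KO 2_3 or KO 4). Serpina3g, a serine protease inhibitor, was at 394, 353 and 451 CPM in KO and 193, 116 and 199 in Het (log2 change 1.24, adjusted p = 0.000172), and passed in all 6. Its neighbour in the family, Serpina3h, rose by 1.13 (adjusted p = 0.00727) but did not pass without KO 1, Het 1 or Het 2_3, and since these genes are close copies, the split of reads between them is uncertain. Rps27l, a p53-responsive paralog of the ribosomal protein gene Rps27, rose by 1.19 (adjusted p = 0.0147) and did not pass without KO 1, Het 1 or Het 4. An intron of it holds the consensus match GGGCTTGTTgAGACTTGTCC, at chr9:66794103-66794122 of mm9 in the notation used above.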
